A study of Mus musculus with 4 samples.

Results

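The ATR and ATM signalling genes analysed here were 10 genes of the DNA damage response whose products act at breaks and unsynapsed chromatin in meiosis: *Atr*, *Atrip*, *Atm*, *Topbp1*, *Mdc1*, *Brca1*, *H2afx*, *Rnf8*, *Chek1* and *Chek2*. They were taken by name from the 24411 gene rows of each library, and all 10 were found. All 10 had a mean of at least 1 TPM (a transcript level corrected for gene length and library total) and so were among the 14512 genes tested. For every member except *H2afx*, the lower of the 2 libraries labelled *Zfp541* KO lay above the higher control. The largest differences were those of *Atm*, *Mdc1* and *Chek1*, which were 2.45, 2.16 and 2.26 times their control means, whereas *H2afx* was at 1.04 times. No member and no other gene passed a false discovery rate (FDR) of 0.05 in limma with 2 libraries in each group.

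ATR and ATM are large protein kinases that phosphorylate serine or threonine followed by glutamine. In spermatocytes ATM responds to the programmed double-strand breaks of leptotene. ATR, brought to unsynapsed chromosome axes with its partner ATRIP and switched on by TOPBP1, phosphorylates the histone variant H2AX there. MDC1 binds phosphorylated H2AX and spreads the mark into chromatin loops, and in pachytene this covers the X and Y chromosomes in the sex body, where transcription is silenced. BRCA1 marks unsynapsed axes, RNF8 is a ubiquitin ligase recruited by MDC1, and CHK1 and CHK2, encoded by *Chek1* and *Chek2*, are the kinases that ATR and ATM activate.

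The libraries came from testes of postnatal day 18 mice of the strain given as C57BL/6 and CBA mixed, all carrying *Rec8-3xFLAG-HA-p2A-GFP*, a knock-in that makes GFP together with the meiotic cohesin REC8, and GFP positive cells were sorted for RNA. The 2 controls were *Zfp541*+/-, so they carry 1 copy of the same deletion, and the 2 other libraries were labelled *Zfp541* KO. One control came from a heterozygous and the other from a homozygous knock-in testis, and the labels do not say which is which, whereas both libraries labelled KO were homozygous. ZFP541 is a zinc finger protein of spermatocytes, and the comparison addresses how its loss changes the transcriptome of meiotic prophase. The 2 libraries labelled KO are also called the KO-labelled pair, given in the order 1 and 2. The *Zfp541* row itself was at 112 TPM in control 1 and 72.2 TPM in control 2, with 136 and 151 TPM in the KO-labelled pair. Both KO-labelled values lay above both controls, with group means of 144 TPM for KO and 92.1 TPM for control. The paper describes an allele that lacks many *Zfp541* exons, and reports no ZFP541 protein in knockout testis. The row thus shows no lower *Zfp541* level in the libraries labelled KO. A level per gene does not separate reads of deleted exons from those of remaining ones, so this row alone cannot settle the labels. Whether the labels are right was not tested, and all directions below follow them. TPM keeps no sequencing depth, which is unknown for these libraries. Nothing states that the libraries of a group came from separate animals, so p-values measure the spread between these libraries only.

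The axis protein gene *Sycp3*, a marker of meiotic prophase, was at 1108 to 2196 TPM in the 4 libraries, whereas the testis histone gene *Hist1h1t*, a marker of mid to late pachytene, was at 1.00 to 2.55 TPM in these poly(A)-selected libraries. *Rec8*, which carries the knock-in, was at 7.05 TPM in control 1, 27.85 in control 2, and 27.66 and 19.41 in the KO-labelled pair. Markers of stage and of other cells differed between libraries. Summed over 12 leptotene and zygotene markers, the level was 3348 TPM in control 1, 6146 in control 2, and 6997 and 6888 in the libraries labelled KO. A single gene made up much of this sum, as *Tex101* alone was at 1354, 3627, 2984 and 2742 TPM in the same order. Over 13 pachytene markers the sum was 6923 TPM in control 1, 3251 in control 2, and 2510 and 3435 in the libraries labelled KO. Of this, *Ldhc* alone was at 3659, 1819, 768 and 1230 TPM in the same order. The 7 Leydig cell markers summed to 3632 TPM in control 1 and 20.5 TPM in control 2, with 393 and 609 TPM in the KO-labelled pair, and the 7 macrophage and blood markers to 1640 and 32.4 TPM against 1322 and 954 TPM. The 9 Sertoli cell markers summed to 916 and 883 TPM in controls 1 and 2, against 1222 and 886 TPM in the KO-labelled pair. The 10 spermatogonial markers summed to 496 and 1152 TPM against 1026 and 844 TPM. Of these, *Uchl1* alone was at 127 and 559 TPM against 273 and 225 TPM. The 10 round spermatid markers summed to 145 and 58.5 TPM against 57.5 and 61.5 TPM. Only 5 of these 10 had a mean of at least 1 TPM, and *Acr* alone was at 118 and 36.5 TPM against 18.0 and 21.9 TPM. In bulk RNA a change in the number of cells of a type and a change in RNA per cell cannot be told apart. The part of these differences in the results below was not tested.

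In the kinase arm, *Atr* was at 262 TPM in control 1 and 152 TPM in control 2, with 320 and 338 TPM in the KO-labelled pair. The groups did not overlap, but the controls lay farther apart than control 1 lay from either library labelled KO. On the scale of log2(TPM + 1) used throughout, the groups lay 0.72 apart (standard error 0.32, adjusted p = 0.389 from limma). *Atrip*, the gene of the ATR partner, was at 26.5 TPM in control 1 and 34.6 TPM in control 2, with 42.0 and 48.0 TPM in the KO-labelled pair. Its log2 difference was 0.55 (standard error 0.25, adjusted p = 0.391 from limma), with control 2 now the higher control. *Topbp1*, which encodes the ATR activator, was at 132 TPM in control 1 and 98.2 TPM in control 2, with 229 and 223 TPM in the KO-labelled pair. The gap between the groups was wider than that within either, with a log2 difference of 0.98 (standard error 0.22, adjusted p = 0.310 from limma). *Atm* was at 16.5 TPM in control 1 and 16.7 TPM in control 2, with 42.9 and 38.4 TPM in the KO-labelled pair. Here the controls were nearly equal, and the log2 difference was 1.24 (standard error 0.24, adjusted p = 0.310 from limma).

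Among the chromatin genes, *H2afx* was at 206 TPM in control 1 and 329 TPM in control 2, with 290 and 267 TPM in the KO-labelled pair. Both libraries labelled KO lay between the controls, and the log2 difference was 0.10 with a 95% interval from -0.70 to 0.89 (adjusted p = 0.897 from limma). *Mdc1*, the gene of the protein that reads phosphorylated H2AX, was at 260 TPM in control 1 and 137 TPM in control 2, with 399 and 459 TPM in the KO-labelled pair. Both were above both controls, which were themselves 0.92 apart on the log2 scale, and the log2 difference between groups was 1.17 (standard error 0.37, adjusted p = 0.320 from limma). *Rnf8* was at 68.7 TPM in control 1 and 63.3 TPM in control 2, with 85.4 and 88.2 TPM in the KO-labelled pair. This was the smallest difference among the members whose groups did not overlap, with a log2 difference of 0.39 (standard error 0.18, adjusted p = 0.396 from limma). *Brca1* was at 14.4 TPM in control 1 and 16.4 TPM in control 2, with 35.0 and 28.3 TPM in the KO-labelled pair. Both values in the KO-labelled pair were above both controls, with a log2 difference of 0.99 (standard error 0.27, adjusted p = 0.315 from limma).

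The checkpoint kinase genes were the lowest of the 10. *Chek1* was at 9.20 TPM in control 1 and 13.2 TPM in control 2, with 26.9 and 23.8 TPM in the KO-labelled pair. The groups were separated, with a log2 difference of 1.13 (standard error 0.32, adjusted p = 0.318 from limma). *Chek2* was at 5.54 TPM in control 1 and 7.13 TPM in control 2, with 9.68 and 9.96 TPM in the KO-labelled pair. Its groups did not overlap either, and its log2 difference was 0.57 with a 95% interval from -0.39 to 1.53 (adjusted p = 0.498 from limma).

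**Figure D1:**
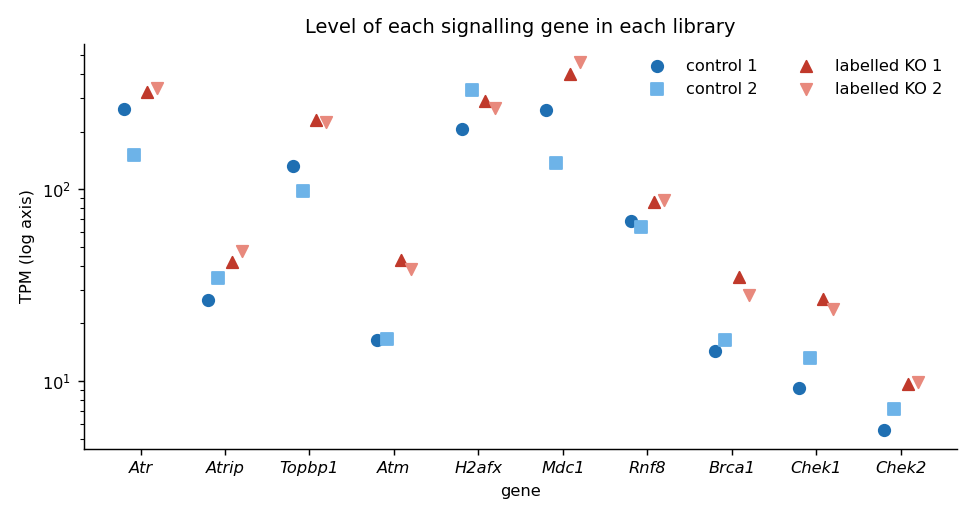
Level of each of the 10 genes in TPM on a log axis, with 1 symbol for each of the 2 controls and the 2 libraries labelled KO. In 9 of the 10 genes both red triangles lie above both blue symbols, and in *H2afx* they lie between the controls.

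Of the 10 members, 9 (90%) had both libraries labelled KO above both controls and 0 had both below, beside 38.6% and 12.1% of all genes tested. The share of all genes above was larger for longer transcripts. It was 16.6% in the shortest quintile, which holds *H2afx*, 47.0% in the fourth, which holds 2 members, and 59.3% in the longest, which holds 6. At an unadjusted p under 0.05 there were 5 members, *Atm*, *Topbp1*, *Brca1*, *Chek1* and *Mdc1*, all at higher levels in the libraries labelled KO, beside 10.7% of all genes tested in that direction. Past an FDR of 0.05 there were 0 members and 0% of all genes tested by limma. A log2 difference of at least 1 was seen in 3 members, *Atm*, *Mdc1* and *Chek1*, beside 8.98% of all genes tested. The median log2 difference was 0.85 over the 10 members and 0.28 over all genes tested, and 9 of the 10 members lay above the latter. An exact permutation of 2 against 2 libraries cannot give a two-sided p under 0.33.

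The calls depended on which controls entered the fit. Without control 1, limma called 7 members higher at an FDR of 0.05, namely *Atr*, *Atm*, *Topbp1*, *Mdc1*, *Brca1*, *Rnf8* and *Chek1*, beside 5610 higher (38.7%) and 1375 lower (9.47%) of all genes tested. Without control 2 it called 6, namely *Atrip*, *Atm*, *Topbp1*, *Mdc1*, *Brca1* and *Chek1*, beside 2248 higher (15.5%) and 1875 lower (12.9%). In both fits the spread comes from the 2 libraries labelled KO alone, and the lone control is assumed to vary as little. Without control 1 the log2 difference of *Atr* was 1.11 and without control 2 it was 0.33, and the values of *Mdc1* were 1.63 and 0.71, those of *Chek1* 0.89 and 1.37, and those of *Chek2* 0.41 and 0.73. Those of *Atrip* were 0.37 and 0.74, and those of *Topbp1* 1.20 and 0.77. *Atm* was at 1.23 and 1.25, *Brca1* at 0.90 and 1.08, and *Rnf8* at 0.45 and 0.33. *H2afx* was at -0.24 without control 1 and at 0.43 without control 2.

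**Figure D2:**
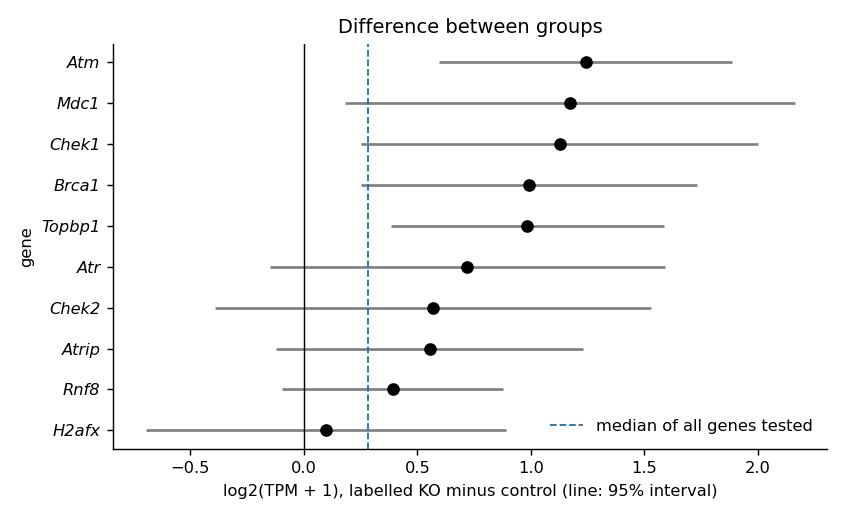
Difference in log2(TPM + 1) between the 2 libraries labelled KO and the 2 controls for each gene, with its 95% interval from limma and, as a dashed line, the median of 0.28 over all genes tested. The intervals of *Atm*, *Mdc1*, *Chek1*, *Brca1* and *Topbp1* lie above 0, and those of the other members include 0.

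The shift shared by all genes depended on the scaling. With median-ratio scaling of the libraries the median over all genes was -0.015 and that over the members 0.52. Under that scaling 6 members had both libraries labelled KO above both controls and 0 had both below, beside 22.6% and 22.8% of all genes tested. The log2 difference was then 0.92 for *Atm*, 0.84 for *Mdc1*, 0.81 for *Chek1*, 0.67 for *Brca1* and 0.65 for *Topbp1*, whereas it was 0.38 for *Atr*, 0.22 for *Atrip*, 0.27 for *Chek2*, 0.058 for *Rnf8* and -0.24 for *H2afx*. With quantile normalization the members' median was 0.73, that over all genes 0.077, and 7 members were above and 0 below without overlap, beside 27.8% and 19.4% of all genes tested.

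Transcript length moved with the differences. Most members are long, with 6 of the 10 in the longest quintile of genes tested (longest transcript of 5041 nt or more), from *Topbp1* at 5224 nt to *Atm* at 9819 nt, whereas *H2afx*, at 1384 nt, was in the shortest quintile. Over all genes the median difference between the libraries labelled KO and the controls was -0.065 in the shortest quintile, 0.15, 0.28 and 0.41 in those between, and 0.61 in the longest. The controls differed from each other with length too, by 0 for control 2 minus control 1 in the shortest quintile and by -0.70 in the longest, while the libraries labelled KO differed by -0.0060 in the longest quintile. When each library was centred within 20 bins of length, the members' median was 0.63 against 0.32 for all genes, and 8 of the 10 members lay above the latter. *Atr* was at 0.16 and *Rnf8* at 0.18 after this correction, below the median of all genes, and *Atm*, *Mdc1* and *Brca1* were at 0.68, 0.76 and 0.57. *Topbp1* was at 0.77 and *Atrip* at 0.42. *Chek1*, at 3797 nt, kept a difference of 1.09, the largest of the 10, and *Chek2* and *H2afx* were at 0.73 and 0.54.

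**Figure D3:**
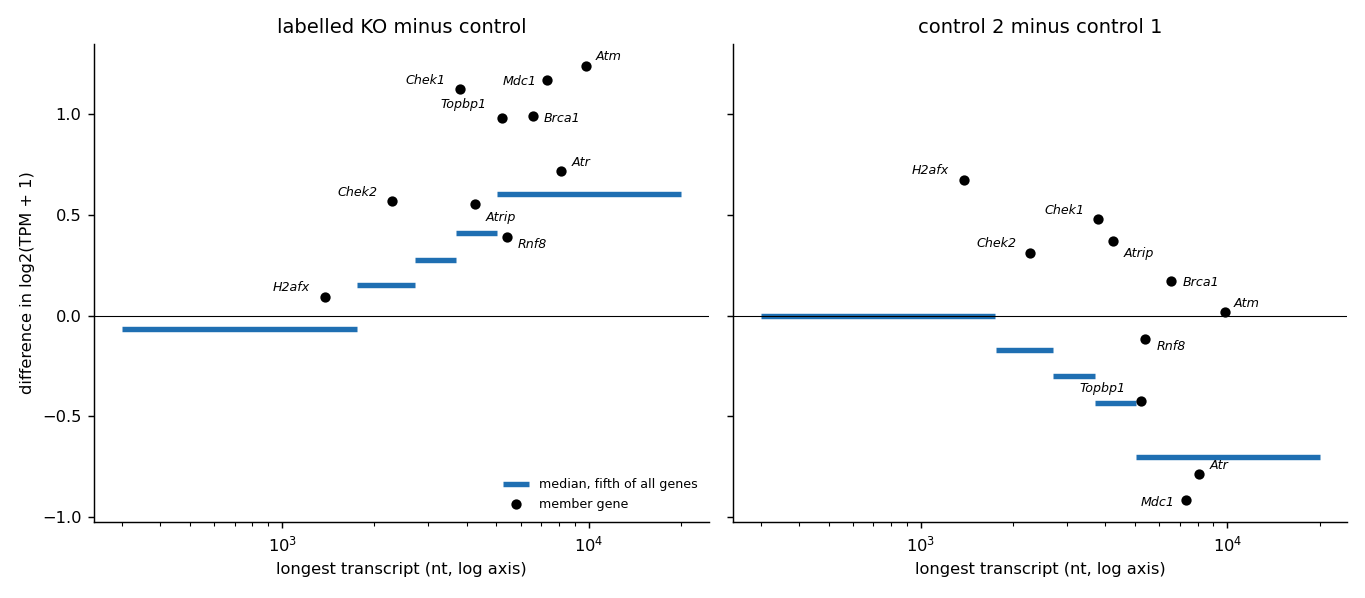
Difference in log2(TPM + 1) against the length of each gene's longest transcript in nt on a log axis, for the libraries labelled KO minus the controls and for control 2 minus control 1, with points for the 10 genes and bars for the median of each quintile of all genes tested (the outer bars are drawn to the axis range). The bars go from -0.065 to 0.61 with length on the left and from 0 to -0.70 on the right.

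In the order of levels, *H2afx* at 267 ± 87.3 TPM, *Atr* at 207 ± 78.3 TPM and *Mdc1* at 199 ± 86.8 TPM (SD, n = 2) led the controls, with ranges that overlapped. They were followed by *Topbp1* at 115 ± 23.8 TPM, *Rnf8* at 66.0 ± 3.82 TPM, *Atrip* at 30.5 ± 5.72 TPM, *Atm* at 16.6 ± 0.156 TPM, *Brca1* at 15.4 ± 1.39 TPM, *Chek1* at 11.2 ± 2.85 TPM and *Chek2* at 6.34 ± 1.12 TPM (SD, n = 2), and the ranges of neighbours in this order did not overlap. In the libraries labelled KO, *Mdc1* at 429 ± 42.6 TPM came first, then *Atr* at 329 ± 12.7 TPM and *H2afx* at 278 ± 16.7 TPM (SD, n = 2). The rest kept their places, from *Topbp1* at 226 ± 4.13 TPM to *Chek2* at 9.82 ± 0.198 TPM (SD, n = 2), and only *Atrip* at 45.0 ± 4.19 TPM and *Atm* at 40.6 ± 3.24 TPM overlapped with their neighbour in the order. *Atr* was above 95.3% and 91.1% of genes tested in the controls and above 96.7% and 96.9% in the libraries labelled KO. *Chek2* was the lowest of the 10, at 20.7% in control 1 and 35.0% in control 2, with 31.7% and 32.8% in the KO-labelled pair.

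Partners did not keep fixed proportions within a library. The TPM of *Atr* was 9.90 times that of its partner *Atrip* in control 1, 4.38 times in control 2, and 7.62 and 7.05 times in the libraries labelled KO, which lay between the controls. *Atr* over *Atm* was 15.9 in control 1 and 9.08 in control 2, with 7.46 and 8.82 in the KO-labelled pair, both below both controls. *Mdc1* over *H2afx*, the reader over the histone it binds, was 1.27 in control 1 and 0.417 in control 2, with 1.37 and 1.72 in the KO-labelled pair, both above both controls. *Chek1* over *Chek2* was 1.66 in control 1 and 1.86 in control 2, with 2.78 and 2.39 in the KO-labelled pair, also without overlap. These ratios are a description of 2 against 2 libraries, with no test and no correction for length. *Mdc1*, at 7335 nt, was in the longest quintile and *H2afx*, at 1384 nt, in the shortest. With the length correction their log2 differences were 0.76 and 0.54, beside 1.17 and 0.10 without it.

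By position, 6 of the 10 genes (*Chek1*, *H2afx*, *Atm*, *Atr*, *Topbp1* and *Atrip*) lie on mouse chromosome 9 in GRCm38, the assembly UCSC names mm10, from *Chek1* starting at 36708482 to *Atrip* ending at 109074124. *Atr* spans chr9:95857597-95951781 on the forward strand, *Atm* chr9:53439149-53536740 on the reverse strand and *H2afx* chr9:44334694-44336077 on the forward strand. *Mdc1* and *Rnf8* lie on chromosome 17, *Brca1* on chromosome 11 and *Chek2* on chromosome 5. The 809 tested genes of chromosome 9 had a median log2 difference of 0.28, and 40.8% of them had both libraries labelled KO above both controls. *Atr* overlaps the antisense gene *1700065D16Rik*, and *Atrip* overlaps *Trex1* on the same strand. The counting is not stated to use strand, so reads of the shared stretches cannot be assigned with certainty. *1700065D16Rik* was at 17.0 TPM in control 1 and 6.52 TPM in control 2, with 6.03 and 4.91 TPM in the KO-labelled pair. *Trex1*, a DNA exonuclease gene, was at 19.8 TPM in control 1 and 11.8 TPM in control 2, with 23.6 and 28.1 TPM in the KO-labelled pair. A separate row with the joined name *Rnf8-cmtr1* was at 2.27 TPM in control 1 and 1.31 TPM in control 2, with 3.54 and 4.11 TPM in the KO-labelled pair, and how reads were split between it and *Rnf8* is uncertain.

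Several members are transcribed head to head with another gene, with starts less than 1000 bases apart on opposite strands. The stretches between the annotated starts of *Atm* and *Npat* (chr9:53536829-53536888) and of *Brca1* and *Nbr1* (chr11:101551956-101552106) are shown, since in each pair both genes differed the same way. They are given on the forward strand of GRCm38.p6 as taken from RefSeq, outside the annotated transcripts of both genes, and capitals mark the GC box GGGCGG and the CCAAT box CCAAT on either strand.
Atm-Npat: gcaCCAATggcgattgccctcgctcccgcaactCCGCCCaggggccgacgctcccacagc
Brca1-Nbr1: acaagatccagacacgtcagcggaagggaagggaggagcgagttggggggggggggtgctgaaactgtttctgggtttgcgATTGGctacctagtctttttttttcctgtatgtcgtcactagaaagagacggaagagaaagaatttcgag
The *Atm* and *Npat* stretch of 60 bases holds 1 GC box and 1 CCAAT box and is 71.7% G and C. The *Brca1* and *Nbr1* stretch of 151 bases holds 0 GC boxes and 1 CCAAT box and is 50.3% G and C.

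*Npat*, which encodes a coactivator of histone genes, was at 21.5 TPM in control 1 and 16.7 TPM in control 2, with 42.8 and 35.7 TPM in the KO-labelled pair. Its level was close to that of *Atm* in every library, with *Atm* at 0.766 to 1.07 times *Npat*. *Npat* had a log2 difference of 1.01 (standard error 0.27, adjusted p = 0.315 from limma), beside 1.24 for *Atm*. *Nbr1*, an autophagy receptor gene, was at 64.1 TPM in control 1 and 50.8 TPM in control 2, with 94.1 and 83.6 TPM in the KO-labelled pair, a log2 difference of 0.63 beside 0.99 for *Brca1*. *Hscb*, a gene of iron-sulfur cluster assembly, faces *Chek2* with starts 202 bases apart and was at 29.0 TPM in control 1 and 45.2 TPM in control 2, with 32.4 and 27.7 TPM in the KO-labelled pair. Its groups overlapped and its log2 difference was -0.27 (adjusted p = 0.706 from limma), beside 0.57 for *Chek2*. *1300017J02Rik*, which faces *Topbp1*, was at 19.5 TPM in control 1 and 9.84 TPM in control 2, with 9.66 and 14.5 TPM in the KO-labelled pair, with groups that overlapped. The starts of *Atr* and its antisense gene *1700065D16Rik* are 725 bases apart, and that gene had both libraries labelled KO below both controls, with a log2 difference of -0.85 (adjusted p = 0.517 from limma), beside 0.72 for *Atr*. Of the 5 genes head to head with a member, 2 were above without overlap, 1 was below and 2 overlapped, beside 38.6% above and 12.1% below over all genes tested.

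**Figure D4:**
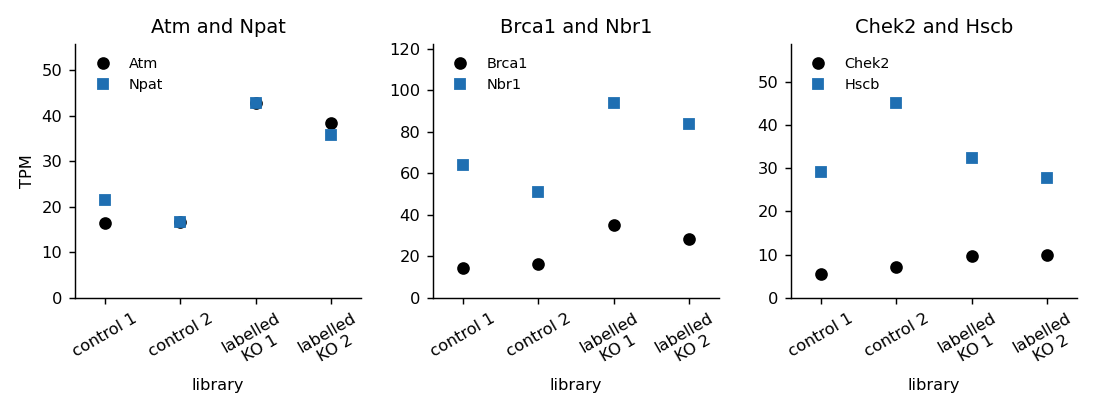
TPM of *Atm*, *Brca1* and *Chek2* (black circles) and of the gene transcribed head to head from each, *Npat*, *Nbr1* and *Hscb* (blue squares), in the 2 controls and the 2 libraries labelled KO. *Atm* and *Npat* lie close together in each library, whereas *Hscb* is at its lowest in the library labelled KO 2, where *Chek2* is at its highest.

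RefSeq promoter entries were found for 9 of the 10 members. In the 250 bases before the start, the members held 12 to 33 CpG pairs with a median of 18.0, beside a median of 15.0 over 10924 promoters of genes tested. Their GC content ranged from 51.2% for *Brca1* to 73.2% for *Topbp1*. Its median was 55.6%, below the 59.6% over promoters of genes tested. A GC box (GGGCGG, either strand) was in 4 of the 9, those of *Atm*, *Atr*, *Topbp1* and *Rnf8*, beside 57.6% of promoters of genes tested, and a CCAAT box (CCAAT, either strand) in 6, beside 36.8%. The E2F element TTTCGCGC was in 1, that of *Topbp1*, beside 0.476%, and the CRE element TGACGTCA and the NRF1 element were in 0, beside 2.73% and 1.59%.

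Other genes of the pathway were taken as 8 lists with 72 tested genes in all. Of these, 0 passed an FDR of 0.05 in limma in either direction, 27 had an unadjusted p under 0.05 in either direction, beside 14.4% of all genes tested, 50 (69.4%) had both libraries labelled KO above both controls and 3 had both below, and the median log2 difference was 0.58. As above, 38.6% and 12.1% of all genes tested were above and below without overlap, and the median over all genes was 0.28. The 9-1-1 clamp is loaded beside single-stranded DNA and brings TOPBP1 to ATR. The list of this clamp and of ATR activation had 8 of 14 genes above without overlap, 1 below and a median of 0.54. Among the clamp genes, *Rad9a* was at -0.30, *Hus1b* at 0.13, *Rad1* at 0.22, *Hus1* at 0.38 and *Rad9b* at 0.71. The groups of *Hus1b* and *Rad1* overlapped, and *Rad9a* was the gene below. *Timeless* and *Clspn*, which relay ATR activity to CHK1, had log2 differences of 1.10 and 0.99, and *Etaa1*, an ATR activator apart from TOPBP1, one of 0.88. *Rpa3*, a subunit of the single-strand binding protein RPA, was at 34.2 TPM in control 1 and 75.7 TPM in control 2, with 156 and 110 TPM in the KO-labelled pair, whereas *Rpa1* and *Rpa2* were at -0.11 and -0.13 on the log2 scale. Upstream of ATM, the list of the MRN complex and ATM activators had 5 of 6 genes above and 1 below with a median of 0.47. The MRN genes *Rad50*, *Nbn* and *Mre11a* were at 0.95, 0.65 and 0.33, and *Rbbp8*, which acts in end resection, at 0.52. The gene below was *Kat5*, for an acetyltransferase that activates ATM. It was at 114 and 94.7 TPM in controls 1 and 2, with 76.0 and 72.5 TPM in the KO-labelled pair.

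Downstream of MDC1 and RNF8, the list of ubiquitin signalling at H2AX had 6 of 11 tested genes above, 0 below and a median of 0.69. *Herc2*, a partner of RNF8, was at 1.29, *Rnf169* at 1.25, *Ube2v2* at 1.01 and *Uimc1*, which brings BRCA1 to ubiquitin chains, at 0.93. *Rnf168*, the ligase that follows RNF8, was at 22.1 TPM in control 1 and 16.6 TPM in control 2, with 20.4 and 21.7 TPM in the KO-labelled pair, with groups that overlapped. After the length correction the median of this list was 0.20. The 7 genes of BRCA1 partners had 5 above, 1 below and a median of 0.52, with *Brca2* at 1.07, *Bard1*, the obligate partner of BRCA1, at 0.69 and *Brip1*, a helicase, at 0.61. *Rbbp8* is also in this list.

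At the chromosome axis, the 5 genes that sense asynapsis or form the axis were all above without overlap, with a median of 0.83. *Hormad1* and *Hormad2*, which mark unsynapsed axes for ATR, had the following levels. *Hormad1* was at 531 TPM in control 1 and 728 TPM in control 2, with 1145 and 1232 TPM in the KO-labelled pair, and *Hormad2* was at 64.3 TPM in control 1 and 113 TPM in control 2, with 145 and 159 TPM in that pair. Their log2 differences were 0.93 and 0.83. *Sycp3* and *Sycp2* were at 0.86 and 0.73. *Hormad1* and *Sycp3* also belong to the leptotene and zygotene markers, of which 9 of 12 were above, with a median of 0.89. Of the 13 pachytene markers, 1 was above and 6 were below, with a median of -0.49. The part of stage in the members' differences was not tested.

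The sex body effectors had 9 of 11 tested genes above, 0 below and a median of 0.65. *Fancm*, of the Fanconi anaemia pathway, was at 1.05, the heterochromatin protein genes *Cbx1* and *Cbx3* at 1.00 and 0.89, and *Atf7ip*, a partner of the histone methyltransferase SETDB1, at 0.89. *Setdb1* itself was at 116 TPM in control 1 and 96.3 TPM in control 2, with 195 and 183 TPM in the KO-labelled pair. Of the 576 tested genes on the X chromosome, which the sex body silences, 28.5% were above without overlap and 30 genes were below. Over all genes tested, 38.6% were above and 12.1% below. An unadjusted p under 0.05 in limma, in either direction, was seen in 21 X-linked genes, beside 14.4% of all genes tested. The median log2 difference of the X-linked genes was 0.28, the same to 2 decimals as that of all genes tested. Control 2 minus control 1 had a median of 0.10 over X-linked genes but -0.36 over all genes tested. The match of the 2 medians thus holds for the mean of the controls, and was not tested with either control alone. The checkpoint targets and brakes had 7 of 12 above, 0 below and a median of 0.45. *Wee1*, a kinase that restrains CDK1, was at 1.08, *Cdkn1a* at 0.83, *Pkmyt1* at 0.59 with groups that overlapped, and *Cdc25a*, a phosphatase that CHK1 marks for decay, at 0.57. The other kinases of the ATR and ATM family and the factors that assemble them had 6 of 7 above, 0 below and a median of 0.68. *Prkdc*, for the catalytic subunit of DNA-PK, was at 11.8 TPM in control 1 and 5.99 TPM in control 2, with 24.8 and 26.4 TPM in the KO-labelled pair, a log2 difference of 1.49. *Smg1* and *Trrap* were at 1.10 and 0.84, and the assembly factor gene *Tti1* at 0.68.

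**Figure D5:**
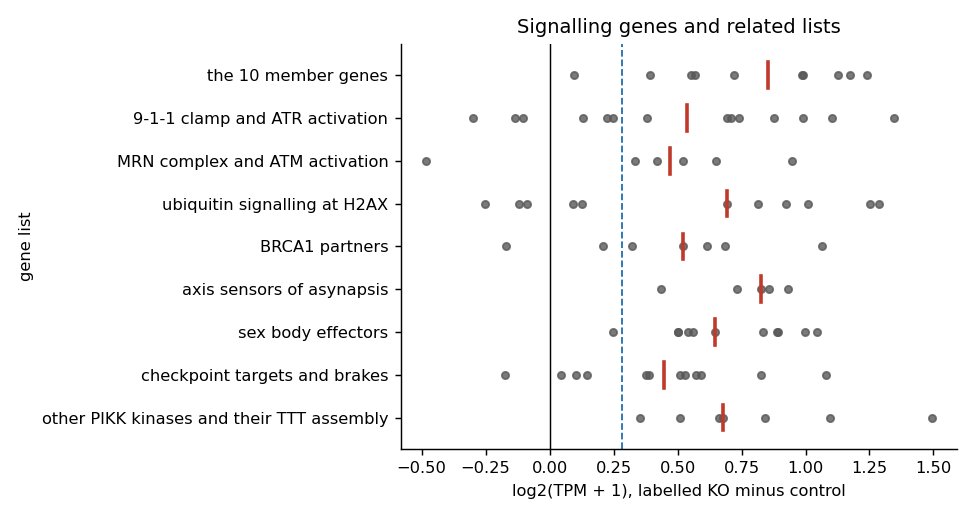
Difference in log2(TPM + 1) between the libraries labelled KO and the controls for each tested gene of the 10 members and of the 8 related lists, with a red bar at the median of each list and a dashed line at the median of 0.28 over all genes tested. The medians lie between 0.45 and 0.85, and *Kat5* is the lowest point, at -0.48.

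The genes whose profile over the 4 libraries was nearest to that of *Atr*, by Euclidean distance of centred log2(TPM + 1) values, were *Dync1h1* at 0.023, *Zbtb25* at 0.033 and *Ascc3* at 0.035. *Dync1h1*, the dynein heavy chain gene, was at 158 TPM in control 1 and 89.7 TPM in control 2, with 191 and 199 TPM in the KO-labelled pair, and control 2 minus control 1 was -0.81 on the log2 scale, beside -0.79 for *Atr*.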

How the data were processed

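RNA of sorted GFP positive cells was measured in 2 control and 2 *Zfp541* KO samples, grouped by their labels. The authors trimmed reads with Trim Galore 0.5.0 (cutadapt 1.16), aligned them to mm10 with STAR 2.6.0a and estimated expression with RSEM 1.3.1, and they deposited TPM for each gene. TPM holds no depth, so no counting interval can be given.

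Genes averaging 1 TPM or more were fitted by genotype in R 4.3.3 with limma 3.58.1 on log2(TPM + 1). The variance prior followed the mean, and p-values were adjusted by Benjamini-Hochberg over all genes tested. The pseudocount understates differences of low genes. Loci and lengths came from GENCODE M21 (GRCm38), with a length for 99.0% of genes tested. The members and lists were chosen with earlier results of these data known. By rule, all members were named, as were at most 4 genes of each list with the largest absolute difference. So were neighbours of members and the 3 genes nearest to *Atr*, with *Zfp541* and *Rec8* as checks. *Rnf168*, *Rpa1*, *Rpa2*, *Setdb1* and the marker genes *Sycp3* and *Hist1h1t* were named after their values were seen. The rule did not cover the clamp genes *Rad9a*, *Rad9b*, *Rad1*, *Hus1* and *Hus1b*, which were also named. Nor did it cover *Mre11a* and the marker genes *Tex101*, *Ldhc*, *Uchl1* and *Acr*. Alternatives covered the pseudocount, filter, scaling, variance model, FDR, replicate block, length and each sample left out. The paper places the mice on C57BL/6.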

Additional observations from a re-analysis of the deposited data

How the results depend on the processing

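Of the 16 alternatives, 7 cannot move a log2 difference or repeat another, and they are left out of the counts of values here. Under the other 9, 88 of 90 values of a member kept the direction. The exceptions were *H2afx*, at -0.24 with median-ratio scaling and at -0.24 to 0.43 when 1 sample was omitted (-0.24 without control 1). The members' median of 0.85 was 0.52 with median-ratio scaling, 0.73 with quantile normalization and 0.63 with the length correction. Omitting 1 sample at a time gave medians of 0.73 to 0.89. With these omissions 9 to 10 members were above without overlap and 0 to 1 below, beside 42.9% to 65.8% and 15.6% to 36.0% of all genes tested. In the same fits 0 to 7 members were higher past an FDR of 0.05 and 0 were lower. Over all genes 0 to 5610 were higher and 0 to 1875 lower, and without a filter 1 was higher and 1 lower. The fits without a control borrow their spread from the libraries labelled KO, which lie close together.

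Deviations of same-numbered samples correlated at -0.16 across genes, and the labels do not say that a number marks a litter or a day. With replicate number as a block, 0 members and 0 genes passed, and with the block and the length correction the members' median was 0.63 and 0 passed. A block of crossed numbers, added after seeing the data, gave a different count, in which 7 genes were higher and 80 lower, and 0 members passed. Of 72 medians of the 8 related lists under the 9 alternatives, 5 were below the median of all genes. With the length correction (all genes 0.32) these were the MRN list at 0.29, BRCA1 partners at 0.29 and ubiquitin signalling at 0.20. Without control 1 (all genes 0.44) they were the 9-1-1 list at 0.42 and BRCA1 partners at 0.27. For the changes under scaling and length the cause was not tested. The unknown depth and 2 samples a group limit what could be detected.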
